A study of Rattus norvegicus with 421 samples.

Results

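The transcripts described here encode the proteins of the cytosolic ribosome in rat liver. They were taken by name: every probe set of the array that carries exactly 1 gene symbol, where that symbol is Rpl or Rps followed by a digit, or Rplp0, Rplp1, Rplp2 or Rpsa, leaving out the Rps6k kinases and names that end in l or -ps. This gave 48 of 15866 probe sets, for 42 of 10411 named genes: 30 probe sets of the large subunit, 16 of the small subunit and 2 of Rpl7l1, which passes the name rule although its protein is not one of the canonical ribosomal proteins. The rule itself uses names and no measured value, although it was set with earlier results of these data known. A further 33 ribosomal probe sets carry several symbols, so that no single gene can be named for them, and were left out by the same rule.

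The livers came from male Wistar Hanover rats, 8 to 10 weeks old. The animals were given 1 of 30 compounds, or vehicle alone, over periods of up to 14 days. The published methods give strain, sex, age and daily gavage for part of these compounds. Acetaminophen and saline are not among them, and the acetaminophen groups carry times from 6 to 48 h. Each array holds total liver RNA of 1 animal, and each treated group is set against the vehicle group of its own block and time, which received carboxymethylcellulose, corn oil or saline. For the compounds that the published methods cover, 3 of 5 animals in a dose group were taken to the array after histopathology. There the spread between arrays is that between chosen animals. There are 98 treated and 38 vehicle groups. Most groups hold 3 arrays, the first day of diethyl-stilbestrol holds 2, and vehicle groups hold up to 6. The groups described below, with the short names used in the plots, received acetaminophen (Aap, 4250 mg/kg) in the saline block. With carboxymethylcellulose they received diethyl-stilbestrol (DES, 10 mg/kg), piperonyl-butoxide (PBO, 1200 mg/kg), ethionine (ETH, 200 mg/kg), methapyrilene HCl (MPy, 60 mg/kg), thioacetamid (TAA, 19.2 mg/kg), dehydroepiandrosterone (DHEA, 600 mg/kg), acetamide (AA, 3000 mg/kg), Wy-14643 (Wy, 60 mg/kg), aflatoxin B1 (AB1, 0.24 mg/kg), phenobarbital (PB, 80 mg/kg) or nifedipine (Nif, 3 mg/kg). With corn oil they received dimethylnitrosamine (DMN, 4 mg/kg), 2-nitrofluorene (2-NF, 44 mg/kg) or C.I Direct Black (CIDB, 146 mg/kg). The comparison of carcinogen classes also takes in methylcarbamate (Mcarb, 400 mg/kg), given with carboxymethylcellulose.

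A ribosome joins a small subunit, which reads the messenger RNA, to a large subunit, which links the amino acids. Their proteins are needed in equal copies, and the transcripts of these proteins are among the most abundant of a liver cell. Most begin with a run of pyrimidines right at the cap, the terminal oligopyrimidine tract, through which growth signals that pass through the kinase TOR set how well the whole family is translated. The protein factors that load and move the ribosome are partly encoded by messages of the same kind, whereas the factors that assemble new ribosomes in the nucleolus follow other control, in which Myc has a known part.

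The start regions of the members were searched for pyrimidine runs near the annotated start, and those of several members that the results below turn on are printed. In the RefSeq start windows of build GRCr8, which were found for 37 of the 42 member genes, 27 windows (73%) held an uninterrupted run of 8 or more C or T on the gene's own strand within 25 bases of the annotated start, against 5308 of 27457 windows (19.3%) over all genes. The match is to letters alone, and an annotated start need not be the one used in liver. The lines give 40 bases before the start and 30 bases from it, 5′ to 3′ on the gene's strand, with the longest such run in capitals:
Rplp0 (chr12:46718361-46718430, minus strand): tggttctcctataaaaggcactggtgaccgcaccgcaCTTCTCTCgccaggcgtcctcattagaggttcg
Rps3 (chr1:163195747-163195816, minus strand): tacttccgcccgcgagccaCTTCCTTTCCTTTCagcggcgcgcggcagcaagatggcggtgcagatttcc
Rpl34 (chr2:221962254-221962323, minus strand): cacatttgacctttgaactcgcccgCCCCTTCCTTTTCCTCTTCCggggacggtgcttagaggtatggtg
Rpl19 (chr10:83519024-83519093, plus strand): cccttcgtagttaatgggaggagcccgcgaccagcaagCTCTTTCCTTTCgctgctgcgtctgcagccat
Rpl12 (chr3:36661900-36661969, plus strand): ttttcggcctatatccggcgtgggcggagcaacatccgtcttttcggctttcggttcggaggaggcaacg
Rpl3 (chr7:113507961-113508030, minus strand): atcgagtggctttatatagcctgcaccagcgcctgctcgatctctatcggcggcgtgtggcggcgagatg
The first 4 hold such a run, and the windows of Rpl12 and Rpl3 hold none of 8 letters. The rule does not ask that a run begin at the start, so it does not identify the tract at the cap. The run of Rps3 ends before the annotated start, and Rpl12 has a run of 7 letters across its start.

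All levels are log2 values of the deposited table, a change is the mean of the treated minus the mean of the vehicle arrays on that scale, and a probe set is called higher or lower at an adjusted p below 0.05 (limma, 1 mean per group over all arrays, Benjamini-Hochberg over all 15866 probe sets within each comparison). Each SE and p rests on the spread of a probe set within all groups of the study together. It does not measure the spread of the arrays compared, which can be wider. In whole liver, a change of the level in each cell and a change in the number of cells that hold the transcript cannot be told apart: fewer cells of a type and less RNA per cell read alike. In vehicle livers the mean of the 48 members was very even: group means lay between 11.13 and 11.38, single arrays between 10.97 and 11.51, and the median SD within a group was 0.0478. Hepatocyte markers such as albumin averaged between 13.69 and 14.06 on the arrays of the groups that lead the results. On 7 arrays of the study the mean of the muscle or pancreas marker list exceeded 8, while the lowest array of the same groups lay between 5.56 and 6.25. Of those that enter a comparison described below, muscle markers stood out on array 3 of acetaminophen at 6 h (10.11) and on vehicle array 3 of the phenobarbital block at day 14 (8.41), and pancreas markers on array 3 of Wy-14643 at day 1 (9.73). Compounds of 1 block share their vehicle arrays, so diethyl-stilbestrol, piperonyl-butoxide and ethionine are measured against the same 4 livers at day 1, and methapyrilene, thioacetamid and acetamide against the same 6 at day 7.

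Across the study ribosomal protein transcripts were called higher far more often than lower. Of 4704 tests, 48 members in 98 groups, 665 (14.1%) were called higher, against 3.74% of all probe sets, and 77 (1.64%) were called lower, against 3.35%. A member was called higher in a median of 14 groups and a probe set of the array in a median of 2. The calls were concentrated: 11 groups had 30 or more members higher, 44 groups had none called in either direction, and the median change was above 0 in 74 groups. Those 11 groups belonged to acetaminophen, diethyl-stilbestrol, methapyrilene, thioacetamid, piperonyl-butoxide, dehydroepiandrosterone and acetamide.

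**Figure D1:**
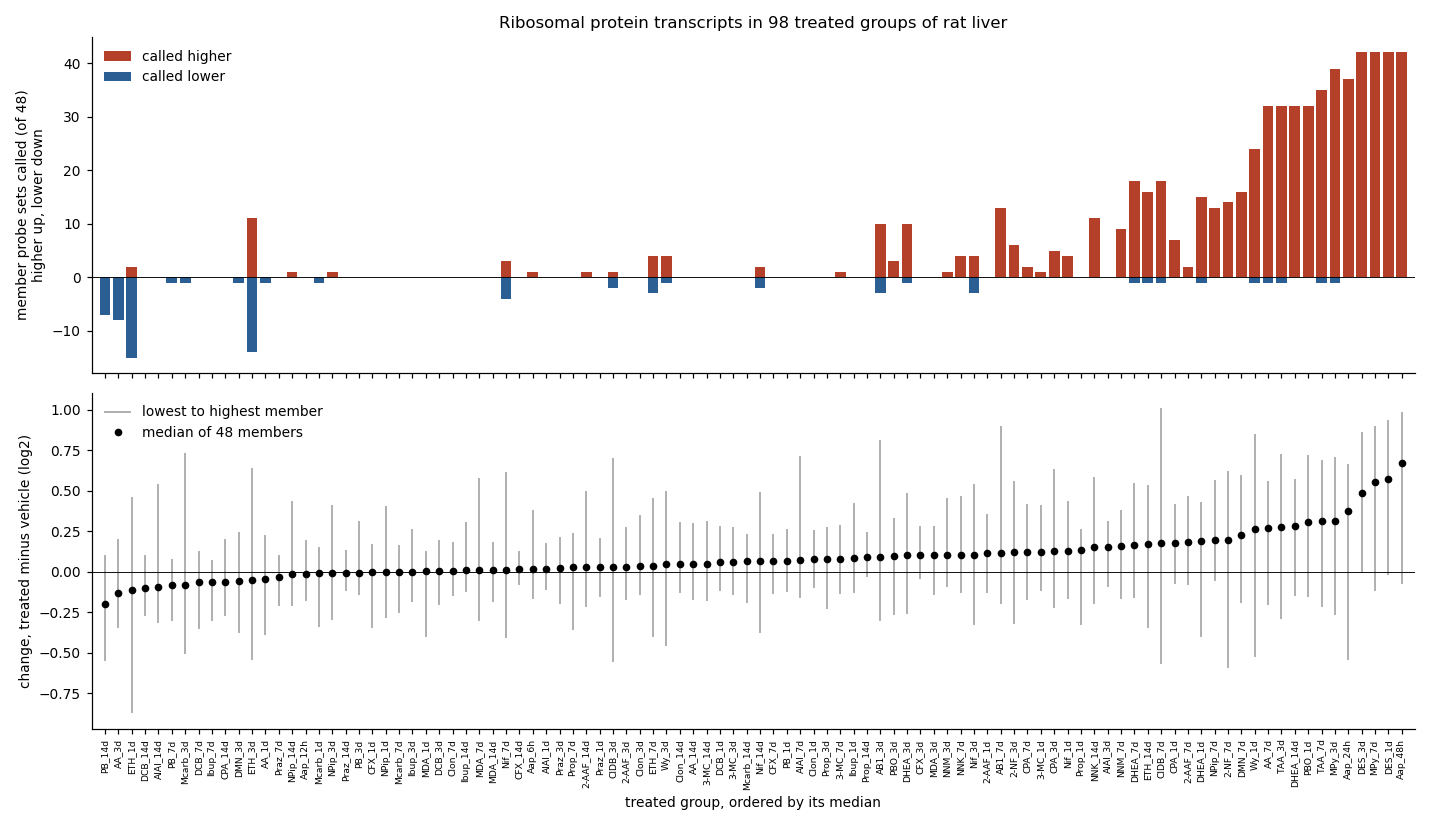
Member probe sets called higher or lower (top, count of 48) and the median, lowest and highest log2 change of the members (bottom) in each of the 98 treated groups, ordered by the median. Groups with 30 or more members higher lie together at the right end, and the counts of lower members at the left end stay at 15 or below.

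Acetaminophen, which injures the liver at high dose, gave the highest median of all groups. At 48 h 42 of the 48 members were higher and none was lower, with a median change of 0.67 (all probe sets, -0.06), while 17.5% of all probe sets were called higher. The mean of the members was 11.72, 11.84 and 11.80 on the treated arrays and 11.17, 11.20 and 11.19 on the vehicle arrays, so the groups lay far apart. These 42 are exactly the members with a mean level of 8 or more, and 41 of them had every treated array above every vehicle array. Taking in size, 34 members were also at least 1.5-fold higher, against 6.01% of all probe sets.

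Proteins of both subunits were among the largest changes at 48 h. Rpl12, which forms the base of the stalk that binds elongation factors, read 12.77, 12.87 and 12.76 on treated and 11.81, 11.87 and 11.77 on vehicle arrays, a change of 0.98 ± 0.09 (SE, adjusted p = 1.11e-19, limma). Rplp0, which carries that stalk, changed by 0.91 ± 0.09, from vehicle values of 12.06 to 12.07 up to treated values of 12.88, 12.97 and 13.09. Rpl3, a protein close to the peptide-forming centre, changed by 0.88 ± 0.10. Rpl13a changed by 0.90 ± 0.14. In the small subunit Rps24 changed by 0.90 ± 0.11, Rps3, which lines the entry of the messenger RNA, by 0.84 ± 0.09, and Rps6, the substrate of the S6 kinases, by 0.79 ± 0.08. Rpsa, known also as the laminin receptor, changed by 0.77 ± 0.08 on its brightest probe set and by 0.95 ± 0.10 on a further one. The median change was 0.67 over the large and 0.71 over the small subunit probe sets. The smallest called changes were those of Rps29 (0.32 ± 0.06) and of Rpl7l1 (0.30 ± 0.10). In the same livers all 18 cell cycle genes were higher, with a list mean of 7.22 to 8.56 on treated and 6.74 to 6.92 on vehicle arrays. Of 10 macrophage markers 4 were higher and 1 lower (10.36 to 10.65 against 9.33 to 9.61), and all 5 red cell genes were lower (8.11 to 8.35 against 9.78 to 10.15). The part of these cells in the ribosomal protein changes was not tested.

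The acetaminophen response appeared between 12 and 24 h. At 6 h only Rpl7l1 was called higher (0.28 ± 0.10), at 12 h limma called none (none higher and 1 lower at an unadjusted p below 0.05; medians 0.01 and -0.01), and at 24 h 37 were higher, with a median of 0.38, against 17.4% of all probe sets. All 37 were among the 42 called at 48 h. The change at 48 h minus that at 6 h was itself called higher for 39 members, against 12.8% of all probe sets, led by Rpl13a (0.98 ± 0.20), Rpl12 (0.97 ± 0.13), a further probe set of Rpsa (0.91 ± 0.14) and Rps9 (0.88 ± 0.13). Without the 6 h array that carried muscle markers the count was again 39. Between 24 and 48 h, a contrast added after the values were seen, 11 members were called higher, against 4.96% of all probe sets, led by Rps24 (0.56 ± 0.15), Rpl21 (0.46 ± 0.16), Rpl41 (0.43 ± 0.11) and a further probe set of Rpsa (0.43 ± 0.14). At 24 h 4 cell cycle genes were higher (6.56 to 7.41 against 6.76 to 6.98), 3 macrophage markers were higher and 2 lower, and 4 hepatocyte markers were lower and 1 higher; their part in the result was not tested.

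**Figure D2:**
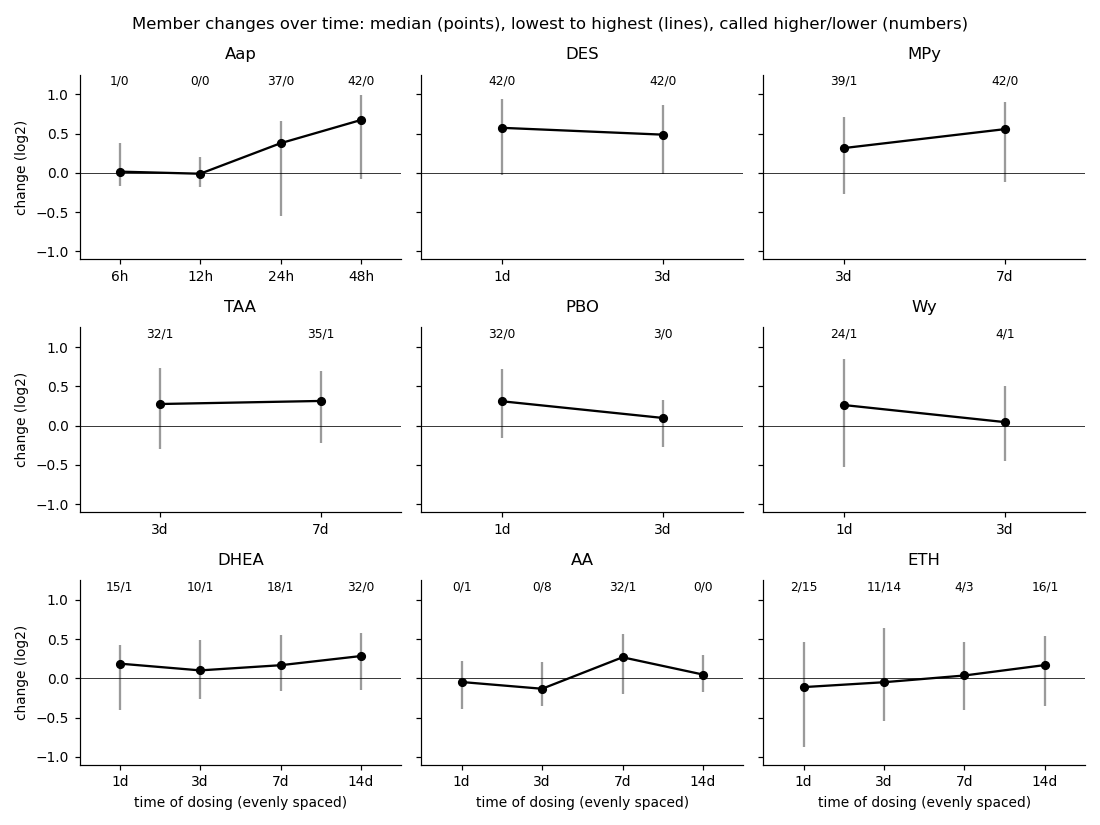
Median log2 change of the 48 members (points), the range from the lowest to the highest member (grey lines) and the number called higher and lower (printed over each point) at each time for 9 compounds; times are evenly spaced on the axis. The acetaminophen median lies near 0 at 6 and 12 h and at 0.67 at 48 h, and those of piperonyl-butoxide and Wy-14643 are lower at day 3 than at day 1.

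Diethyl-stilbestrol, a synthetic oestrogen, raised nearly the whole family on both days measured. At day 1, with 2 treated arrays, 42 members were higher (8.31% of all probe sets) with a median of 0.57. The members averaged 11.68 and 11.73 on the treated arrays and between 11.15 and 11.19 on the 4 vehicle arrays. Small-subunit members led: Rps3 read 12.17 and 12.22 against 11.41, 10.97, 11.12 and 11.53, a change of 0.94 ± 0.10 (adjusted p = 1.04e-16), Rps24 changed by 0.93 ± 0.12, Rps16 by 0.88 ± 0.10 and Rps15a by 0.82 ± 0.09. Rplp0 (0.84 ± 0.10) and Rpl34 (0.82 ± 0.09) led the large subunit. With the 1.5-fold size added, 21 members were called, against 2.33% of all probe sets. Against all vehicle arrays of the block, Rps3 changed by 0.73 and Rps16 by 0.62. A fit of the 2 groups only called 29 members higher and no longer called Rps16 (adjusted p = 0.0746, limma). At day 3 again 42 were higher (5.17%), 41 of them called on both days, with a median of 0.49, Rpl12 at 0.83 ± 0.09 and Rplp0 at 0.73 ± 0.09. The difference between the days was called for no member (limma; 2 were higher and 10 lower at an unadjusted p below 0.05). Of 18 cell cycle genes 7 were higher at day 1 (list mean 7.31 to 7.80 on treated and 6.88 to 7.07 on vehicle arrays), and none of 10 macrophage markers was. At day 3, 3 cell cycle genes were higher (7.16 to 7.59 against 6.82 to 7.73), and of 11 hepatocyte markers 7 were lower and 1 higher (13.84 to 13.89 against 13.93 to 14.01). The part of these cells in the results was not tested.

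Methapyrilene, an antihistamine that is toxic to rat liver, gave 39 members higher and the dim second probe set of Rps24 lower at day 3 (6.18% of all probe sets higher) and 42 higher at day 7 (7.35%), with medians of 0.32 and 0.56. At day 7 the members averaged 11.77, 11.72 and 11.73 on treated arrays, against 11.18 to 11.28 on the 6 vehicle arrays. Rpl12 again led (0.90 ± 0.08, adjusted p = 8.6e-21), with 12.58, 12.63 and 12.62 on treated arrays and 11.52, 11.72 and 11.86 as the lowest, median and highest vehicle value. A further probe set of Rpsa (0.88 ± 0.09) and Rplp0 (0.84 ± 0.08) came next. Rpl23a, which sits at the exit of the tunnel for the nascent chain, and Rpl4, which lines that tunnel, both changed by 0.78, and Rpl5, which carries the 5S RNA, and Rpl7a both by 0.73 ± 0.07. The brightest probe set of Rpsa stood at 0.73 and Rpl14 at 0.72. Of the members 22 were at least 1.5-fold higher, against 1.79% of all probe sets. Only Rpl26 had a called difference between the days (0.43 ± 0.11). At an unadjusted p below 0.05 (limma), 28 members were higher at day 7 than at day 3 and 0 lower. The median difference was 0.25 over the members and 0.0027 over all probe sets. At day 3, 11 cell cycle genes were higher (7.41 to 7.68 against 6.75 to 7.15). At day 7 12 cell cycle genes (7.41 to 7.60 against 6.67 to 6.98) and 7 macrophage markers (9.61 to 9.96 against 8.81 to 9.41) were higher, and their part in the result was not tested.

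Thioacetamid gave fewer and smaller changes, 32 members higher at day 3 (9.07% of all probe sets) and 35 at day 7 (7.56%), with medians of 0.28 and 0.31. The member lower on each day was the second probe set of Rps24, whose mean over all arrays is 4.83. At day 7 the members averaged 11.53, 11.50 and 11.54 on treated arrays. Rpl4 changed by 0.69 ± 0.12, the 3 probe sets of Rpsa by 0.61, 0.60 and 0.55, Rps4y2 by 0.59 ± 0.22, Rpl21 by 0.54 ± 0.10 and Rpl13a by 0.52 ± 0.12, followed by Rpl23a, Rplp0, Rpl14 and Rpl19 at 0.50, 0.48, 0.46 and 0.45. Rps9 was at 0.04 ± 0.08 and was not called. No cell cycle gene was called at day 7, and 1 macrophage marker was higher and 1 lower. Of 5 red cell genes 4 were lower (9.21 to 9.35 against 9.90 to 10.41), and their part in the result was not tested. Only 4 members passed the 1.5-fold size, against 0.977% of all probe sets.

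**Figure D3:**
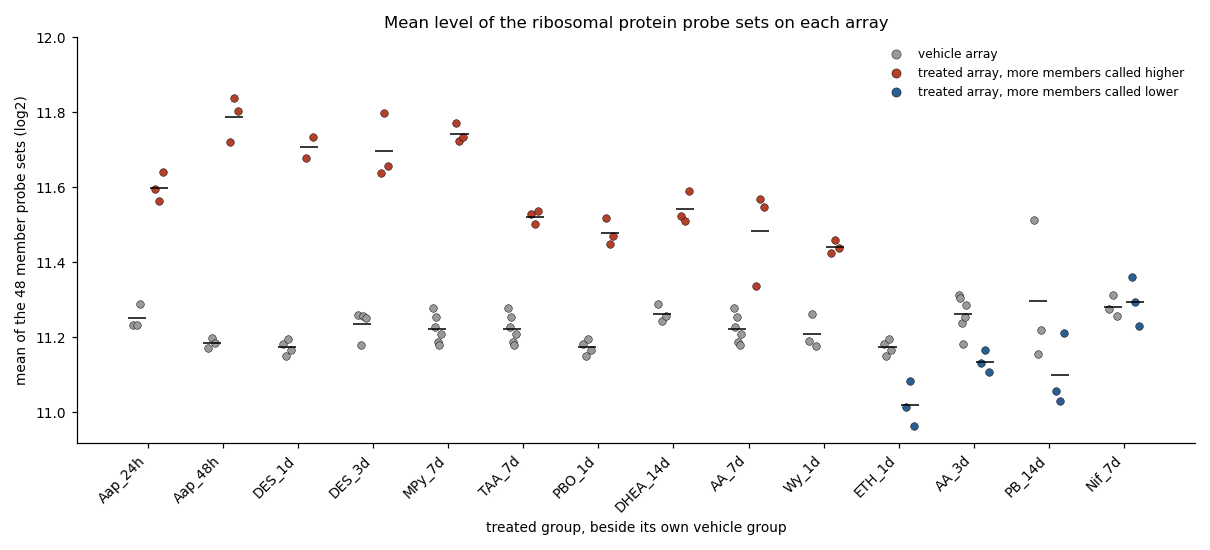
Mean log2 level of the 48 member probe sets on every array of 14 treated groups (coloured) and of the vehicle group of each (grey); lines are group means. Treated and vehicle arrays do not overlap in the first 10 groups, drawn in red, and vehicle array 1 of the phenobarbital group lies at 11.51, above all other vehicle arrays.

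Under piperonyl-butoxide and Wy-14643 the change was present at day 1 and smaller at day 3. Piperonyl-butoxide, an inhibitor of cytochrome P450 enzymes, gave 32 members higher at day 1 (13.4% of all probe sets; median 0.31), led by Rps3 (0.72 ± 0.08), Rps16 (0.62 ± 0.09) and Rps15a (0.60 ± 0.08), and 3 at day 3 (5.63%; median 0.10), namely Rpl12, Rpl30 and a further probe set of Rpsa. The difference between the days was called lower for 14 members, against 3.66% of all probe sets, led by Rps3 (-0.61 ± 0.12), Rpl34 (-0.53 ± 0.11), Rps15a (-0.53 ± 0.12) and Rps16 (-0.53 ± 0.13). The vehicle arrays of day 1 are those of diethyl-stilbestrol, where Rps3, Rps16 and Rps15a were also among the largest changes. The same leading members under both compounds are therefore not independent results. Wy-14643, an activator of the nuclear receptor PPAR alpha, gave 24 members higher at day 1 (8.36%; median 0.26) and 4 at day 3 (10.6%), which were Rpl4, Rpl3, Rpl6 and Rpl19, with the dim second probe set of Rpl7 lower (-0.46 ± 0.10). The difference between the days was called lower for 3 members, Rps28 (-0.42 ± 0.11), Rpl7a (-0.40 ± 0.11) and Rpsa (-0.40 ± 0.11), against 0.813% of all probe sets, and higher for the second probe set of Rps24. Without the array that carried pancreas markers (list mean 9.73, beside 6.23 to 6.30 on the vehicle arrays), 19 members were higher at day 1. All 18 cell cycle genes were higher at day 1 of piperonyl-butoxide (7.97 to 8.34 against 6.88 to 7.07) and 17 at day 1 of Wy-14643 (7.93 to 8.19 against 6.86 to 7.20), while 7 and 8 of 11 hepatocyte markers were lower. At day 3 of Wy-14643, where fewer members were called, 14 cell cycle genes were higher (7.79 to 8.21 against 6.75 to 7.15) and 8 hepatocyte markers lower. Their part in the results was not tested.

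Dehydroepiandrosterone, a steroid and peroxisome proliferator in rats, gave 15, 10, 18 and 32 members higher at days 1, 3, 7 and 14, while 8.05%, 10%, 13.3% and 10% of all probe sets were. The dim second probe set of Rps24 was the member lower at days 1, 3 and 7 (-0.40, -0.26 and -0.16). At day 14 the member median was 0.29, with Rpl4 at 0.58 ± 0.14, Rpl27a at 0.54 ± 0.09 and Rps9 at 0.52 ± 0.09. The difference between day 14 and day 1 was called for no member (limma; 6 were higher at an unadjusted p below 0.05). At day 1, 12 cell cycle genes (7.38 to 7.99 against 6.86 to 7.20) and 3 macrophage markers were higher, and at day 3, 13 cell cycle genes were. At day 14 no cell cycle gene was higher and 1 was lower, 7 macrophage markers were lower (8.70 to 9.05 against 9.51 to 9.69) and 6 hepatocyte markers were lower; their part in the result was not tested. Acetamide changed direction over time: 8 members were lower at day 3 and 32 higher at day 7 (13.8%; median 0.27), and limma called none at day 14 (8 higher and 1 lower at an unadjusted p below 0.05). The change at day 7 minus that at day 3, also added after the values were seen, was called higher for 34 members, against 4.68% of all probe sets, led by Rpl3 (0.61 ± 0.12) and Rpl12 (0.57 ± 0.12). At day 7 the treated arrays spread widely, the members averaging 11.34, 11.57 and 11.55, and without the first of these 35 members were higher. All 18 cell cycle genes (7.42 to 8.52 against 6.67 to 6.98) and 8 macrophage markers (10.29 to 10.64 against 8.81 to 9.41) were higher and 4 red cell genes lower at day 7, and their part in the result was not tested.

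Ethionine, an analogue of methionine that is toxic to the liver, gave mainly lower members at day 1. At day 1 15 members were lower (14.8% of all probe sets) and 2 higher (15.7%), with a median of -0.11. The share of members called higher was thus below that of all probe sets. The mean of the members was 11.01, 11.08 and 10.96 on treated arrays, below the range of 11.15 to 11.19 of the vehicle arrays. Rpl3 read 11.54, 10.80 and 11.17 on treated arrays and 12.09, 11.85, 12.01 and 12.24 on vehicle arrays, a change of -0.88 ± 0.09 (adjusted p = 1.13e-17, limma), and the groups did not overlap. Rpl14 read 10.39, 9.93 and 10.25 against 10.98, 10.97, 11.07 and 10.96, a change of -0.80 ± 0.08. Rpl12 changed by -0.70 ± 0.09, Rpl34 by -0.47 ± 0.08 and Rpl24, which bridges the subunits, by -0.42 ± 0.09, all without overlap, and so were Rpl6 (-0.30) and Rps29 (-0.25). The values of Rplp0 (-0.68 ± 0.09), Rps3 (-0.67 ± 0.08) and Rps16 (-0.60 ± 0.09) were called although the groups overlapped, for instance Rps16, which read 12.61, 11.34 and 11.54 on treated and 12.69, 11.94, 12.29 and 12.78 on vehicle arrays. The SE of Rps16 comes from all groups of the study and does not reflect the wide spread of these 7 arrays. Of the 15 lower members, 7 had every treated array below every vehicle array. In the opposite direction Rpl19, a large-subunit protein on the surface facing the small subunit, changed by 0.46 ± 0.08, with overlap (12.84, 13.36 and 13.18 against 12.51, 12.71, 12.85 and 12.59), and the second probe set of Rpl7l1 by 0.34 ± 0.09. Same-numbered arrays deviated together in this comparison (every pair correlated at 0.19 or more), and a fit of these 7 arrays alone called 5 members lower, or 7 with the replicate number as a block. Of the macrophage markers 6 were higher and 1 lower (9.61 to 10.28 against 8.99 to 9.13), and their part in the result was not tested.

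Over the following days the ethionine pattern shifted. At day 3 14 members were lower (18.9% of all probe sets) and 11 higher (20.7%). The higher count is close to the share of all probe sets and alone does not set the members apart. Of the 14, 9 had been lower at day 1, out of 15. Rpl24 (-0.55 ± 0.09), Rps29 (-0.52 ± 0.06), Rpl14 (-0.52 ± 0.08) and Rps3 (-0.42 ± 0.08) were lower, with treated arrays wholly below vehicle. Rpl3, the most reduced at day 1, was now higher (0.27 ± 0.09), as were Rpl19 (0.64 ± 0.08), Rpl5 (0.31 ± 0.08), Rpl18 (0.28 ± 0.08) and Rps3a (0.27 ± 0.07). At day 7 Rpl3 (0.46), Rpl19 (0.33), Rpl7l1 (0.31) and Rpl41 (0.23) were higher and Rpl14 (-0.40), Rpl24 and Rplp0 (both -0.27) lower. The member median was 0.04 on that day, and the share of calls over all probe sets was not taken. At day 14 16 were higher (12.2%) and only Rps3 lower (-0.35 ± 0.09). The change at day 14 minus that at day 1 was called higher for 20 members, against 8.12% of all probe sets, with the largest value for Rpl3 (1.34 ± 0.13), then Rpl12 (0.89 ± 0.13), Rps24 (0.68 ± 0.15) and Rpl14 (0.67 ± 0.12). Macrophage markers were higher on each of these days, 9 of 10 with 1 lower, at 10.58 to 10.9 against 9.07 to 9.38 at day 3, 9.87 to 10.33 against 9 to 9.33 at day 7 and 10.06 to 10.12 against 8.86 to 9.41 at day 14. At day 3, 5 hepatocyte markers were lower, and 3 cell cycle genes were higher and 6 lower. All 5 red cell genes were lower at day 7 (8.13 to 9.91 against 9.84 to 9.97). The part of these cells in the results was not tested. The vehicle arrays of day 14 spread more than most, with a SD of 0.155 for the mean of the members.

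The remaining falls were small. Acetamide at day 3 had 8 members lower, against 4.54% of all probe sets, with Rpl5 at -0.35 ± 0.07, Rpl22 and Rpl34 both at -0.32, Rpl26 at -0.26, Rps15 at -0.25 and Rpl37a at -0.21. Rpl5 read 11.97, 12.05 and 11.94 on treated arrays and 12.22, 12.32 and 12.46 as lowest, median and highest of the 6 vehicle arrays. The dim second probe set of Rps24 (-0.26 ± 0.06) was another of the 8. In these livers 3 macrophage markers (9.77 to 9.92 against 9.12 to 9.67) and 3 hepatocyte markers (13.99 to 14.02 against 13.93 to 13.97) were higher and none lower. Their part in the result was not tested. Phenobarbital at day 14 had 7 lower, against 1.07%, with Rpl13a at -0.55 ± 0.14, Rps3 at -0.37 ± 0.09 and Rpl41 at -0.32 ± 0.07. That result rests on single arrays: the members averaged 11.51, 11.16 and 11.22 on the vehicle and 11.06, 11.03 and 11.21 on the treated ones. Vehicle array 1, with the highest of these means, also had the highest macrophage marker mean (9.89, beside 9.12 and 9.40 on the other vehicle arrays), whose part was not tested. Without vehicle array 1 or without treated array 1 no member was called, without treated array 2 there were 2, without vehicle array 2 there were 20, and without vehicle array 3, which carried muscle markers, 11. Against all vehicle arrays of the block 2 were called. Nifedipine at day 7 had 4 members lower, a share close to the 7.03% of all probe sets called lower. That count alone does not set the members apart. Another 3 were higher, and the share of higher calls over all probe sets was not taken. Rplp0 (-0.41 ± 0.09) and Rpl14 (-0.39 ± 0.09) were lower with no overlap, and both were also called lower at days 3 and 14, Rplp0 by -0.33 and -0.38 and Rpl14 by -0.31 and -0.33. Rpl6 (-0.32) was lower too. Rpl13a (0.62 ± 0.14) and Rpl22 (0.25 ± 0.09) were higher in the same livers, and the probe sets of Rpsa disagreed, the brightest at -0.26 and another at 0.31.

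Some members went their own way. Rpl19 was called higher in 32 of 98 groups and lower in none, more than any other member, ahead of Rps6 with 25, Rpl3 and a further probe set of Rpsa with 24 each, Rpl6 with 22, and Rpl27a, Rps15a and the brightest probe set of Rpsa with 21 groups higher. Apart from the dim second probe set of Rps24, with 12 groups, Rplp0 and Rpl14 were called lower in most groups, 6 each, ethionine and nifedipine in both cases. The highest change of Rpl19 was 1.01 ± 0.08 under C.I Direct Black at day 7, where it read 13.51, 13.60 and 13.51 on treated and 12.63, 12.54 and 12.42 on vehicle arrays. There 18 members were higher in all (8.91% of all probe sets; median 0.18), the next being Rps15a at 0.47 ± 0.09, and Rpl3 was lower (-0.46 ± 0.10; 11.63, 11.62 and 11.64 against 12.21, 12.11 and 11.94), as it was at day 3 (-0.56). In these livers 4 of 5 red cell genes were lower (7.80 to 7.92 against 9.77 to 10.24), 6 cell cycle genes were lower and 1 higher (6.60 to 6.69 against 6.92 to 7.17), and 4 macrophage markers were higher and 1 lower (9.45 to 9.64 against 8.92 to 9.38); their part in the result was not tested. Under aflatoxin B1, which forms DNA adducts, Rpl19 changed by 0.81 ± 0.07 at day 3 and 0.90 ± 0.07 at day 7, and Rpl3 by -0.30 ± 0.08 at day 3. Dimethylnitrosamine at day 7 had 16 members higher (3.08%), with Rpl19 first at 0.60 ± 0.08, beside 4 macrophage markers higher and 1 lower (9.73 to 9.94 against 8.92 to 9.38), whose part was not tested, and 2-nitrofluorene gave Rpl19 changes of 0.56 and 0.62 at days 3 and 7. The day 7 values of C.I Direct Black, dimethylnitrosamine and 2-nitrofluorene share their vehicle arrays and are not independent. Rpl19 was also higher under acetaminophen at 48 h (0.68 ± 0.08) and ethionine at day 3 (0.64 ± 0.08). It changed by 0.56 at day 3 of diethyl-stilbestrol and at day 7 of methapyrilene.

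The spread of a member's changes over the 98 groups ranged from an SD of 0.0972 for the second probe set of Rpl14 to 0.299 for Rps4y2, a form of the small-subunit protein Rps4. Its 5 calls, all higher, included Wy-14643 at day 1 (0.85 ± 0.25) and acetamide at day 7 (0.56 ± 0.22). Next in spread were Rpl3 (0.26), Rplp0 (0.25), Rpl12 (0.249) and Rpl19 (0.246), and the steadiest bright members were Rpl41 (0.126), Rpl37a (0.128) and Rps29 (0.129). Dim probe sets are 6 members with a mean below 8, namely Rpl30, Rpl39, Rps4y2 and the second probe sets of Rps24, Rpl14 and Rpl7. The second probe set of Rps24 was called lower in 12 groups and higher in none, whereas the first probe set of the gene was called higher in 13 groups. The 33 several-symbol ribosomal probe sets gave 33 higher under acetaminophen at 48 h (median 0.65), 31 at day 1 of diethyl-stilbestrol, 32 at day 7 of methapyrilene and 19 lower at day 1 of ethionine.

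In vehicle livers the members also varied together. Over the deviations of all vehicle arrays from their group means, the median Pearson correlation between 2 member probe sets was 0.386, and 0.463 among the 42 with a mean of 8 or more, beside 0.0085 between any 2 probe sets of the array; all share the same hybridizations. Rpl26 (0.821) followed the mean of the other members most closely and the second probe set of Rpl14 (-0.311) least.

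The class question of the study was whether genotoxic and non-genotoxic carcinogens can be told apart. With 1 change per compound at the time the study lists, 2 genotoxic against 8 non-genotoxic compounds, limma called no member and no probe set at all. The genotoxic compounds were C.I Direct Black and dimethylnitrosamine. The non-genotoxic ones were phenobarbital, piperonyl-butoxide, dehydroepiandrosterone, acetamide, methapyrilene, methylcarbamate, diethyl-stilbestrol and ethionine. Both genotoxic compounds were given in corn oil and measured against the same 3 vehicle arrays, so their values are not independent. All 8 non-genotoxic compounds were given in carboxymethylcellulose, so class and vehicle cannot be told apart. Dehydroepiandrosterone, acetamide and methylcarbamate also share their vehicle arrays. Unadjusted p fell below 0.05 for 2 members and for 9.09% of all probe sets. These 2 were Rps4y2 (-0.48 ± 0.17, adjusted p = 0.458) and Rpl19 (0.55 ± 0.20, adjusted p = 0.461). For Rpl19 the changes were 1.01 for C.I Direct Black and 0.60 for dimethylnitrosamine, while the non-genotoxic compounds ranged from -0.14 for phenobarbital to 0.56 for methapyrilene and diethyl-stilbestrol. The next smallest p-values belonged to Rpl27 (-0.29), Rpl30 (-0.16) and Rpl3 (-0.38). Methapyrilene and diethyl-stilbestrol, under which most members were higher, are both in the non-genotoxic class.

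Other genes of protein synthesis did not all follow. Translation factors, 31 genes on the array, were mostly higher in the same groups: 29 were higher and none lower under acetaminophen at 48 h (median 0.59), 26 at day 1 of diethyl-stilbestrol (0.46), 25 at day 7 of methapyrilene (0.34) and 24 at day 1 of piperonyl-butoxide (0.51). Of the ribosome assembly factors, 62 genes, 60 were higher under acetaminophen at 24 h with a median of 0.87, above that of the ribosomal proteins, and 52 at 48 h with a median of 0.46, below it. Under ethionine 49 assembly factors were higher and none lower at day 1 (median 0.42), and 57 higher and 1 lower at day 3 (0.70), in the livers in which ribosomal proteins were lower or mixed. The translation factors at day 1 of ethionine gave 10 higher and 5 lower.

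The 71 mitochondrial ribosomal proteins, which serve the separate ribosome of that organelle, gave 12 higher and 12 lower under acetaminophen at 24 h (median -0.02), 45 higher at day 1 of piperonyl-butoxide (0.31) and 43 at day 1 of Wy-14643 (0.31). At day 3 of acetamide 22 were lower and none higher (-0.17). Of the 18 genes of TOR and Myc control, 10 were higher and 2 lower at 24 h of acetaminophen (median 0.33). At day 1 of diethyl-stilbestrol 3 were higher (median 0.01). Higher and lower genes numbered 5 and 1 at day 7 of methapyrilene and 2 and 1 at day 7 of thioacetamid. They numbered 2 and 3 at day 1 of piperonyl-butoxide and 2 and 4 at day 7 of acetamide. The part of this list in the ribosomal protein changes was not tested. Rheb, the activator of TOR, was higher at 24 h (0.57 ± 0.08) and 48 h (0.43 ± 0.08) of acetaminophen and at day 1 of diethyl-stilbestrol (0.86 ± 0.08). Myc was higher by 1.07 ± 0.43 at 24 h and 1.43 ± 0.43 at 48 h of acetaminophen and by 1.37 ± 0.46 at day 1 of diethyl-stilbestrol, and also by 1.07 ± 0.41 at day 1 of ethionine.

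**Figure D4:**
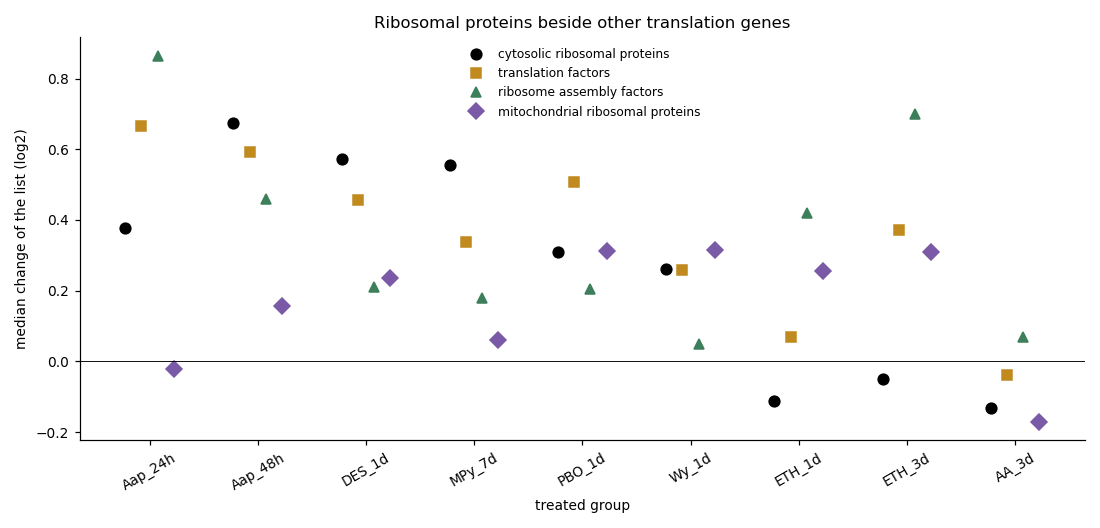
Median log2 change of the cytosolic ribosomal proteins and of 3 other lists of translation genes in 9 treated groups. In both ethionine groups the assembly factors lie at 0.42 and 0.70 while the ribosomal proteins lie below 0, and under acetaminophen at 24 h the mitochondrial ribosomal proteins lie at -0.02.

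Among 10369 genes outside the rule, those whose changes over the 98 groups were most like the mean change of the members were Rack1 (Pearson r = 0.907), Eef1g (0.891), Eef1b2 (0.816), Eif3i (0.803), Eif3f (0.799), Pabpc4 (0.793), Eef2 (0.729) and Eif3m (0.728). Rack1 is a protein of the small subunit that lacks the family name, Eef1g, Eef1b2 and Eef2 serve elongation, Pabpc4 binds poly(A) tails and the Eif3 genes encode subunits of an initiation factor. Groups share vehicle arrays, so these correlations describe the likeness only. Rack1 changed by 1.01 ± 0.08 under acetaminophen at 48 h, 0.93 ± 0.07 at day 7 of methapyrilene and -0.05 ± 0.07 at day 1 of ethionine, where Eef2 (-0.56 ± 0.09) and Eef1b2 (-0.53 ± 0.10) were lower.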

How the data were processed

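Total RNA of single rat livers was hybridized to Affymetrix RAE230A arrays. The authors summarised the scans with RMA (affy package; version not given in the sources used here) and deposited log2 values for 15866 probe sets. RMA corrects background, makes all arrays share one distribution and pulls in extreme probes, so it understates large changes and hides any shift common to most transcripts. No value column was left unmapped and no pair of arrays was identical. Arrays have no read depth, and the number of arrays per group limits the precision.

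Probe sets were named through GEO's platform table, in which 12783 have 1 symbol and 312 several; 2771 are unnamed here. The probe set with the highest mean stood for a gene in lists. Members, lists and tests were chosen with earlier results of these data known. R 4.3.3 and limma 3.58.1 fitted 1 mean per group to all arrays (285 residual and 4.67 prior degrees of freedom). A treated group was compared with the vehicle group named in its label, times within a compound as differences of changes, and carcinogen classes over compounds. Calls needed an adjusted p below 0.05, with 1.5-fold as a second rule.

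The genes named are, in the 4 groups with most members higher and the 4 with most lower (1 group per compound), up to 8 of the largest called changes each way without overlap. They also include the members called in most groups, the most and least variable, the largest time differences and the genes most like the members. Others, among them those in piperonyl-butoxide, dehydroepiandrosterone, Wy-14643, acetamide, C.I Direct Black and later ethionine groups, were picked after their values were seen. Replicate numbers are labels of separate animals: same-numbered arrays had a mean correlation of 0.0131, and every pair lay above 0.1 in 4 of 98 comparisons. The method was tested on simulated data. Alternatives covered normalization, centring, a level filter of 6, members, call rule, vehicle reference, replicate block and left-out arrays. Array control probe sets, and with them the planned check of RNA quality, were not analysed here.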

Additional observations from a re-analysis of the deposited data

Results flagged for a closer look

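The difference between the last and the first time of 1 compound, tested as a contrast of the changes, was called for members under 6 of 30 compounds. Under acetaminophen 39 members were higher at 48 h than at 6 h, and, in a contrast added after the values were seen, 11 were higher at 48 h than at 24 h. Under ethionine 20 were higher at day 14 than at day 1. Acetamide is not among the 6: for day 14 minus day 1 limma called 0 members (2 higher and 0 lower at an unadjusted p below 0.05). Under this compound 34 were higher at day 7 than at day 3, a pair of days chosen after the values were seen. Under piperonyl-butoxide 14 were lower at day 3 than at day 1, and under Wy-14643 3 were lower and 1 higher. Dimethylnitrosamine had 3 higher at day 7 (Rpl12, Rpl22 and Rpl34, by 0.59, 0.57 and 0.47), and methapyrilene had 1.

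Among 36 sets of 4 to 6 vehicle arrays, 3 had an array far from the rest, about what chance gives at 1 in 20. The mean of the members at day 3 of the block shared by diethyl-stilbestrol, piperonyl-butoxide and ethionine was 11.18 on array 2 and 11.25 to 11.26 on the other 3 (gap over range 0.879). Rpl6 at day 1 of that block read 12.19 on array 2 and 12.40 to 12.43 on the others (0.856). Rpl34 at day 3 of the acetamide block read 12.41 on array 1 and 12.22 to 12.28 on the others (0.665).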

How the results depend on the processing

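Requiring 1.5-fold besides left 118 of 665 higher and 6 of 77 lower calls: 21 at day 1 of diethyl-stilbestrol, 22 at day 7 of methapyrilene, 4 at day 7 of thioacetamid, 6 at day 1 of ethionine, and 0 at day 3 of acetamide, day 14 of phenobarbital and day 7 of nifedipine; for time differences it left 41 of 64 higher and 1 of 17 lower. Leaving out 1 replicate number in every group gave 44 to 75 lower calls. A fit of the 2 groups only called 5 at day 1 of ethionine, 5 at day 3 of acetamide and 0 at day 14 of phenobarbital; with the replicate block the ethionine count was 7. Over all arrays the replicate block moved none of these counts by more than 1.5 times. Against all vehicle arrays of its block phenobarbital had 2. Leaving out 1 array gave 40 to 43 higher for acetaminophen at 48 h, 34 to 41 for diethyl-stilbestrol at day 1 (where 1 treated array was left and taken to vary like other groups), 40 to 43 for methapyrilene and 30 to 35 for thioacetamid at day 7, 28 to 33 for piperonyl-butoxide and 17 to 26 for Wy-14643 at day 1, 23 to 28 for dehydroepiandrosterone at day 14 (32 with all arrays) and 24 to 35 for acetamide at day 7. For the acetaminophen change at 48 h minus that at 6 h, a check chosen after the values were seen, it gave 39 to 40. It gave 12 to 19 lower for ethionine at day 1, 4 to 10 for acetamide at day 3, 0 to 20 for phenobarbital and 2 to 4 for nifedipine. The acetamide count was 4 without treated array 3 or vehicle array 1 and 5 without treated array 1, and nifedipine had 2 without treated array 1. Phenobarbital had 0 without treated array 1, 2 without treated array 2, 20 without vehicle array 2 and 11 without vehicle array 3. No call of a named gene changed sign: 735 kept their side of the threshold and 47 lost it, mostly in the groups with lower members. Of these 47, 3 were lost with quantile normalization and 10 in the fit of the 2 groups only. The class contrast called 0 members whichever compound was left out, with day 3 for every compound and with a wider genotoxic class. Other alternatives moved no count by more than 1.5 times. Dim members carry little information.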
